A study of Mus musculus with 8 samples.

Results

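The epidermal differentiation complex is a dense group of genes on mouse chromosome 3 whose products build the cornified envelope, the protein shell that replaces the plasma membrane of the outermost keratinocytes. Its members were taken as every probe set that the platform annotation assigns to symbols that are all Sprr, Lce or S100a genes with a number, or to Lor, Ivl, Flg, Flg2, Hrnr, Rptn, Tchh, Tchhl1, Crnn, Crct1 or Kprp. This gave 51 probe sets for 45 genes, of 45037 probe sets tested. There were 15 probe sets for Lce genes, 14 for S100a genes, 11 for Sprr genes, 7 for the S100-fused genes Flg, Hrnr, Rptn, Tchh and Tchhl1, and 4 for the other envelope precursors Ivl, Lor and Kprp. Flg2, Crnn and Crct1 had no member probe set and were not analysed here. The rule goes by name and not by values, but it was chosen with earlier results of these data known.

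Interfollicular epidermis, the epithelium between hair follicles, was profiled on 1-colour arrays in 8 samples, 4 labelled G9a cKO and 4 labelled G9a WT. G9a, the product of Ehmt2, methylates lysine 9 of histone H3, and cKO stands for its conditional knockout. The labels used here do not name the Cre driver or the deleted part. Both groups had the carcinogen DMBA (0.25 mg/ml) and the tumour promoter TPA (0.02 mg/ml) applied in acetone to shaved back skin once a week for 6 weeks from an age of 8 weeks, 200 µl of each, and were taken at a pre-neoplastic stage, with a labelled age of 15 weeks. No sample without carcinogen is part of the comparison, so that levels are those of treated skin in both groups. The labels give replicate numbers without saying whether each is a separate animal, so the p-values rest on the spread among arrays, which may be technical.

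A keratinocyte that leaves the basal layer first switches on involucrin and, in the granular layer, loricrin, filaggrin and the late cornified envelope (Lce) genes. Small proline-rich (Sprr) proteins serve as flexible cross-bridges between these precursors, transglutaminases join them all, and Sprr genes and S100a8 and S100a9 are known for rising in wounded, inflamed or phorbol ester-treated skin. The S100 proteins are small calcium-binding proteins, and the S100-fused proteins join such a domain to long repeats that bind keratin filaments or harden the envelope.

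The targeted gene was checked first. Ehmt2 read 7.07, 6.72, 6.35 and 6.30 in cKO 1 to 4 and 9.77, 9.25, 9.69 and 9.26 in WT 1 to 4 at 1460692_PM_at (log2 level), a difference of -2.88 (SE 0.19, limma adjusted p = 0.000244), while 1426888_PM_at differed by 0.01 (adjusted p = 0.996). Markers of the labelled tissue were bright: all 9 basal keratinocyte genes of the marker list, among them Krt5 and Krt14, and all 8 spinous genes, among them Krt1 and Krt10, lay above the highest array median, 5.80, on all 8 arrays. On the first principal component of all probe sets WT 4 stood at 23.5, at the end of the cKO arrays 3 and 4 (18.0 and 19.2) and apart from WT 1 to 3 (-20.6 to -11.4), and cKO 2 stood at -10.7, close to them. The second component separated the genotypes, with cKO arrays from 7.35 to 20 and WT arrays from -21.2 to -2.58. Correlations between arrays ran from 0.992 to 0.998, and no pair was a duplicate.

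Start regions of the members were compared by class, and those of 6 genes with a large spread between arrays are printed. Promoter windows of 250 bases before to 50 after the transcription start were matched by symbol for 40 of the 45 member genes (44 windows, RefSeq, GRCm38.p6). The AP-1 motif TGANTCA, the response element of the Fos and Jun factors that TPA is known to activate, was searched on both strands, on which it reads alike. It was found in 15 of the 44 windows (34.1%), against 7.81% of all 32851 promoter windows in the table. By class it was found in 7 of 10 Sprr windows, both windows of Ivl and Lor, 3 of 5 S100-fused windows (Flg, Rptn and Tchhl1) and 3 of 15 S100a windows, and in none of 12 Lce windows. The TATA box letters TATAAA, searched on both strands, were in 20 of the 44 windows (45.5%), against 13.6% of all, and in 8 of 10 Sprr and 2 of 12 Lce windows. The letters AACCGGTT, bound by GRHL factors, were in none of the member windows and in 0.146% of all. A match of letters is a description of the window and not a measured binding site.

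The windows are printed from 5′ to 3′ on the strand of the gene, with matches of TGANTCA and of TATAAA in capitals. Those shown with matches are Sprr1a at chr3:92485832-92486131 (minus strand), Sprr1b at chr3:92438730-92439029 (minus strand), Sprr2h at chr3:92385435-92385734 (plus strand) and Ivl at chr3:92573686-92573985 (minus strand). The Lce1 pair without matches is Lce1a1 at chr3:92648258-92648557 (minus strand) and Lce1a2 at chr3:92670266-92670565 (minus strand). The last 50 bases of each are transcribed.
Sprr1a: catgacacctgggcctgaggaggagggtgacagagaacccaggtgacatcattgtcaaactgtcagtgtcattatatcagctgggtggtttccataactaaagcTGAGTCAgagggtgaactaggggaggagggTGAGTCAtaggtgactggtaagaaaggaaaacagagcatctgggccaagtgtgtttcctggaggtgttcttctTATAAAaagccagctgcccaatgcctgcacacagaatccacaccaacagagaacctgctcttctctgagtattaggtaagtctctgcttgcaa
Sprr1b: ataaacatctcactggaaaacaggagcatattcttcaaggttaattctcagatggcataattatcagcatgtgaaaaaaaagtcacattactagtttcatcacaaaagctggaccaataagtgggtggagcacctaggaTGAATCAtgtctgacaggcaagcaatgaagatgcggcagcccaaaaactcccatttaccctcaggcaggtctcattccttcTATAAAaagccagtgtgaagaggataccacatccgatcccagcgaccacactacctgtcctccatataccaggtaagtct
Sprr2h: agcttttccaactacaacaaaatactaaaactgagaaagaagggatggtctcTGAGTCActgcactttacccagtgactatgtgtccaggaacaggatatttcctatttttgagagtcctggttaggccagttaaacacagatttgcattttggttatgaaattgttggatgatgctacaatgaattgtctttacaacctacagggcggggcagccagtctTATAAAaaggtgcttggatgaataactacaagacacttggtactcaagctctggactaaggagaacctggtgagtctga
Ivl: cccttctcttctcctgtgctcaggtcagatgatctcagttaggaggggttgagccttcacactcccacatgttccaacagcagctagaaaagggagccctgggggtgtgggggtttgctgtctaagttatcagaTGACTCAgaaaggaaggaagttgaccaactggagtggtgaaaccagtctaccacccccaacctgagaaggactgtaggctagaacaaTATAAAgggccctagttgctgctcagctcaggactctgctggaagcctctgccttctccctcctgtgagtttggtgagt
Lce1a1: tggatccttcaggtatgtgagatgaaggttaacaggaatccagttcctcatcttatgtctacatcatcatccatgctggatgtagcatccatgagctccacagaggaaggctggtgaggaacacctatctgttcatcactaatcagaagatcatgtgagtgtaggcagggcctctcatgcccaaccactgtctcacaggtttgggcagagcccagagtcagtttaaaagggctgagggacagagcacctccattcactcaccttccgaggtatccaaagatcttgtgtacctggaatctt
Lce1a2: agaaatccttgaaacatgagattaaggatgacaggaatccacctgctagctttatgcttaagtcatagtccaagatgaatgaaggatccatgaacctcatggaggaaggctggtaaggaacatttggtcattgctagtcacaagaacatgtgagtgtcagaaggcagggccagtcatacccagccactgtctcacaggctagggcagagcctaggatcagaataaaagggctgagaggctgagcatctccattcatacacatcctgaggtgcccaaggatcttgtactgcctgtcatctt

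In the Sprr1a window the AP-1 letters began at positions -146 and -116 from the start, in Ivl at -116, in Sprr1b at -111 and in Sprr2h at -198. The 5 Sprr2 genes with a match (Sprr2d, Sprr2f, Sprr2h, Sprr2i and Sprr2k) all had one between positions -198 and -193. Their windows resemble each other, with identities after global alignment from 61.9% (Sprr2f with Sprr2h) to 81.8% (Sprr2h with Sprr2k). Over all 21 pairs of Sprr2 windows the median was 61.9%. The highest identity, 82.9%, was that of Sprr2a1 with Sprr2a3, which have no AP-1 match. The 36 pairs of Lce1 windows had a median identity of 66.3% (74.6% for Lce1a1 with Lce1a2), while the 63 pairs of an Lce1 with a Sprr2 window had a median of 51.8%. Matches in windows of near copies are therefore not independent of each other.

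**Figure D1:**
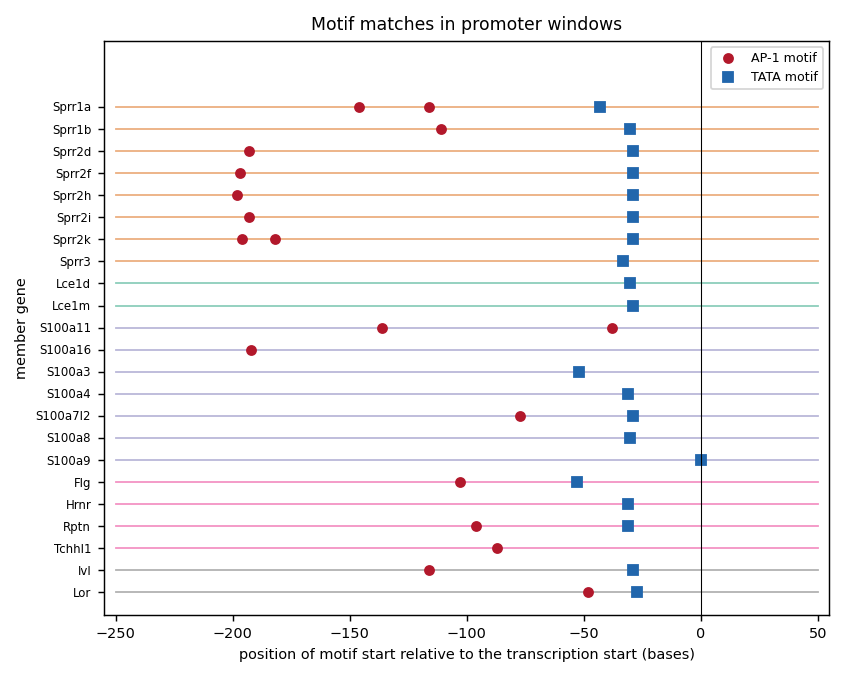
Positions of AP-1 (circles) and TATA (squares) letters in the promoter windows of member genes that hold at least 1 match, by class (line colour, from Sprr at the top to the other precursors at the bottom); the x axis gives the first base of the match relative to the transcription start, and windows of 1 gene are drawn on 1 line. All AP-1 letters lie upstream of the start, in Sprr, S100a and S100-fused genes, Ivl and Lor, and no Lce gene has any.

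No member of the complex passed the test between genotypes. Of 51 probe sets 0 were higher and 0 lower in cKO at a limma adjusted p under 0.05, where 0.393% of all 45037 probe sets were called higher and 0.0733% lower (0.466% in either direction). At an unadjusted p under 0.05 there were 3 members (5.88%), Tchh, Hrnr and S100a9, against 7.98% of all probe sets. The lowest adjusted p among the members was 0.522. The 4 cKO arrays lay wholly to one side of the 4 WT arrays in 1 member, the dim probe set of Lce1g, against 4.89% of all probe sets (3.17% higher and 1.72% lower). The exact permutation test, which cannot go below 0.0286 with 4 against 4, gave that value for this member alone. Means were higher in cKO for 29 members and lower for 22 (56.9% higher, against 53.0% of all probe sets), and the median difference was 0.03 over the members and 0.0053 over all probe sets (log2). Without WT 1 the members' median was -0.02.

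The precision of these differences varied with the class. The 95% interval of the difference lay wholly within a 2-fold change either way for 49 of 51 members (96.1%, against 99.6% of all probe sets) and within a 1.5-fold change for 38 (74.5%, against 97.3%). All 14 S100a probe sets met the narrower bound, with 7 of 11 Sprr, 6 of 7 S100-fused, 3 of 4 other precursor and 8 of 15 Lce probe sets. The exceptions to the wider bound were Lce1a2 and 1 probe set of Lce1a1. A smaller change in cKO is thus compatible with the data for many members, and a p that misses the threshold does not show equal levels.

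**Figure D2:**
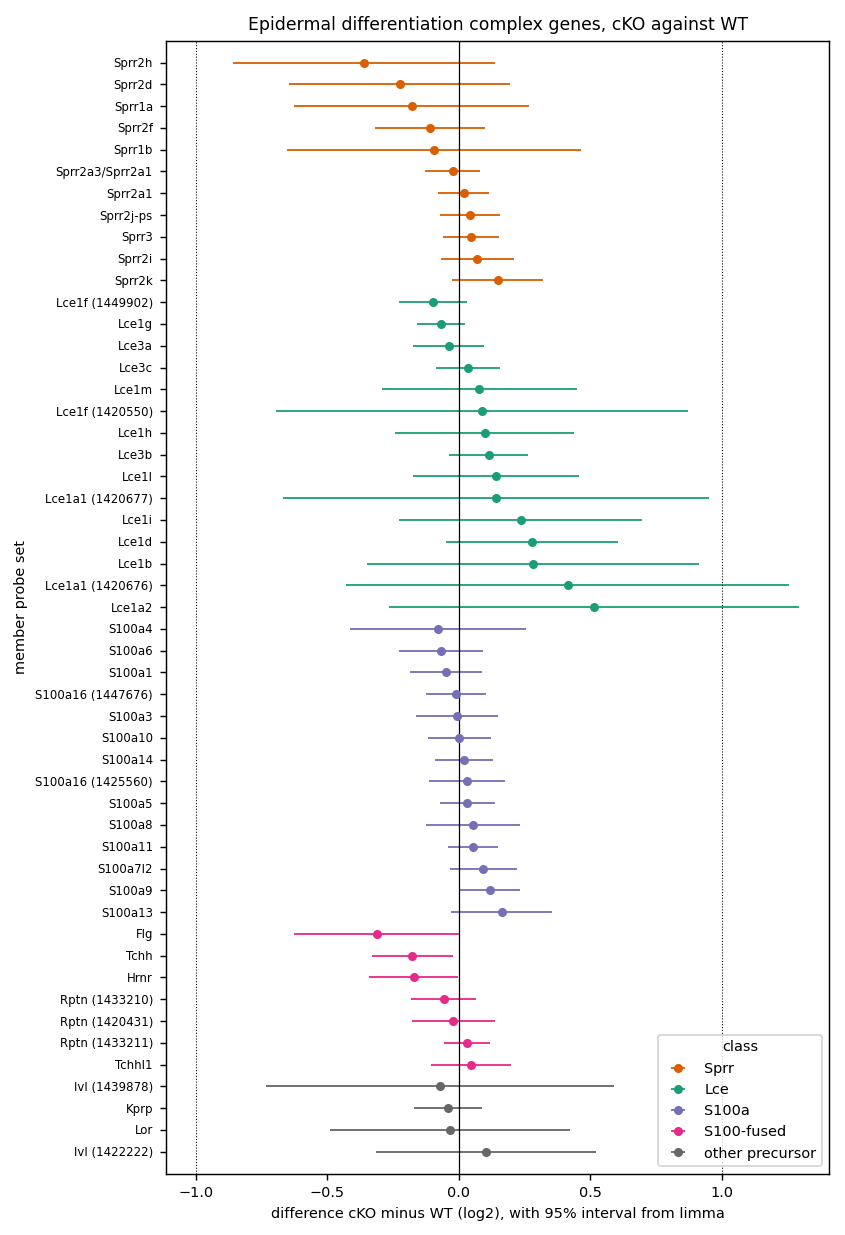
Difference cKO minus WT on the log2 scale for each of the 51 member probe sets, with the 95% interval from limma (n = 4 arrays per group), ordered by class and size; dotted lines mark a 2-fold change. Intervals of Lce1 genes are the widest, those of S100a genes are narrow, and the intervals of Tchh, Hrnr and S100a9 alone leave out 0.

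Of the filaggrin family 5 of 7 probe sets had a lower mean in cKO, and none passed the test. Flg encodes profilaggrin, which is cut into filaggrin to bundle keratin and then into moisturising amino acids. Its probe set read 4.85, 4.53, 4.57 and 4.32 in cKO 1 to 4 and 4.57, 4.79, 5.14 and 5.02 in WT 1 to 4. cKO 1 lay above WT 1 and WT 2, so that the groups overlapped, and the difference was -0.31 (SE 0.14, 95% interval -0.63 to 0.0048, limma adjusted p = 0.634). Hrnr, hornerin, a filaggrin-like repeat protein, read 3.91, 3.73, 3.74 and 3.62 in cKO and 3.79, 3.88, 4.001 and 4.02 in WT, so that its groups overlapped likewise (-0.17, SE 0.07, adjusted p = 0.612). Whether these low levels exceed background cannot be read from the table: 30.8% of all probe sets had a mean below that of Flg and 7.26% below that of Hrnr.

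Tchh, trichohyalin, which stiffens the inner root sheath of the hair follicle and is also found in some differentiated epithelia, had the smallest p of all members. It read 6.42, 6.44, 6.30 and 6.30 in cKO 1 to 4 and 6.63, 6.37, 6.62 and 6.55 in WT 1 to 4. WT 2 alone lay within the cKO range, and the difference was -0.18 (SE 0.07, limma adjusted p = 0.522; exact permutation p = 0.0857). Of the 18 probe sets of hair shaft and inner root sheath markers none passed, 3 of 16 genes lay above the highest array median on all arrays, the median difference was 0.02, and the array means ran from 5.44 to 5.47 in cKO and from 5.37 to 5.45 in WT. Dsc2 of this list, a desmosomal cadherin, stood at -0.36 (SE 0.09, limma adjusted p = 0.168) at 1 probe set and at 0.03 at the other; the part of these markers in the Tchh value was not tested. Repetin, Rptn, an envelope protein with its own calcium-binding domain, differed by -0.02, -0.06 and 0.03 at its 3 probe sets, and Tchhl1, a trichohyalin-like gene, by 0.05 (SE 0.07). The Rptn probe set 1433211_PM_at read 3.63, 3.70, 3.65 and 3.71 in cKO and 3.66, 3.63, 3.63 and 3.63 in WT, a range smaller than 0.1 in each group. Tchhl1 read 4.93, 4.88, 4.88 and 4.73 in cKO and 4.79, 4.95, 4.82 and 4.68 in WT, with full overlap.

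Involucrin and loricrin, the early and the most abundant late precursor of the envelope, varied widely between arrays of a genotype, and their groups overlapped. Ivl read 7.42, 7.76, 8.16 and 8.31 in cKO 1 to 4 and 7.70, 7.60, 7.97 and 7.97 in WT 1 to 4 at probe set 1422222_PM_at (difference 0.10, SE 0.18). At its other probe set, 1439878_PM_at, it read 6.85, 6.99, 7.81 and 8.16 in cKO and 7.19, 7.29, 7.83 and 7.79 in WT (-0.07, SE 0.29). Both probe sets placed cKO 1 and cKO 2 below cKO 3 and cKO 4, a range within cKO of 1.86-fold at the first and 2.49-fold at the second, and the sign of the group difference was not the same at both. Lor read 7.79, 7.28, 7.49 and 7.02 in cKO and 7.02, 7.85, 7.25 and 7.59 in WT (-0.03, SE 0.20, limma adjusted p = 0.996). Its highest array was WT 2 and its lowest WT 1, so that the WT group alone spanned 1.78-fold. Kprp, a proline-rich keratinocyte protein, differed by -0.04 (SE 0.06) at a dim probe set, with readings of 4.38, 4.38, 4.33 and 4.32 in cKO and 4.25, 4.46, 4.37 and 4.49 in WT.

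Among the Sprr genes 6 probe sets stood lower and 5 higher in cKO, and none passed. Sprr2h had the largest difference of the class, which ran from -0.50 without WT 4 to -0.18 without WT 3. It read 6.48, 6.83, 7.32 and 7.05 in cKO 1 to 4 and 7.18, 7.27, 7.82 and 6.86 in WT 1 to 4, a difference of -0.36 (SE 0.22, 95% interval -0.86 to 0.14, limma adjusted p = 0.793). cKO 1 was the lowest and WT 3 the highest array, while the other 6 lay between 6.83 and 7.32. Sprr2d read 5.59, 5.36, 5.53 and 5.35 in cKO and 5.31, 6.10, 6.02 and 5.31 in WT (-0.22, SE 0.19). WT 2 and WT 3 were high and the other 6 arrays were alike, which gave the WT group an SD of 0.43 against 0.12 in cKO; the difference was -0.0858 without WT 2 and -0.35 without WT 4.

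Sprr1a and Sprr1b, both known as genes induced by phorbol esters and injury, had their extremes in the same arrays. Sprr1a read 9.81, 10.4, 10.6 and 10.7 in cKO 1 to 4 and 10.5, 10.6, 10.9 and 10.2 in WT 1 to 4 (-0.18, SE 0.20, limma adjusted p = 0.942). Sprr1b read 8.55, 8.98, 9.45 and 9.503 in cKO and 9.04, 9.43, 9.65 and 8.74 in WT (-0.09, SE 0.25, adjusted p = 0.987). In both, cKO 1 was the lowest and WT 3 the highest of the 8 arrays, as in Sprr2h, and the cKO group spanned 1.83-fold in Sprr1a and 1.94-fold in Sprr1b. In Ivl cKO 1 was the lowest array at both probe sets and cKO 4 the highest.

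The remaining Sprr probe sets differed less. Sprr2k read 7.35, 7.53, 7.54 and 7.66 in cKO and 7.21, 7.39, 7.46 and 7.42 in WT (0.15, SE 0.08, limma adjusted p = 0.713), the largest upward difference of the class. Sprr2i read 4.55, 4.43, 4.54 and 4.34 in cKO and 4.34, 4.50, 4.35 and 4.38 in WT (0.07, SE 0.06). The 2 brightest Sprr probe sets, for Sprr2a1 and for Sprr2a1 with Sprr2a3, read between 12.1 and 12.7 on all arrays, near the highest value of the table, 13.03, and differed by 0.02 and -0.02. Sprr3, a gene of mucosal epithelia, stood at 4.57 ± 0.03 in cKO and 4.52 ± 0.07 in WT (SD, n = 4 each), Sprr2f differed by -0.11 and the pseudogene Sprr2j-ps by 0.04. Over the class 5 of 11 probe sets were higher in cKO, with a median difference of -0.02. The sign of that median turned without cKO 1 (0.02) or WT 3 (0.04). The Sprr2 genes are near copies whose transcripts their probes may share, which leaves the split between them uncertain.

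The Lce1 genes showed the largest differences of the complex and the widest spread. Lce proteins are cysteine-rich precursors laid down late on the inner face of the envelope, and the Lce1 group is the one known for normal skin. Lce1a2 read 7.16, 6.75, 6.59 and 6.38 in cKO 1 to 4 and 5.70, 7.31, 6.21 and 5.60 in WT 1 to 4. The 4 cKO arrays were closer together than the WT arrays, where WT 2 was the highest of all 8 and WT 1 and WT 4 the lowest, and the difference was 0.51 (SE 0.35, 95% interval -0.27 to 1.29, limma adjusted p = 0.832). Lce1a1 read 6.87, 6.20, 6.26 and 6.09 in cKO and 5.29, 7.15, 5.92 and 5.42 in WT at probe set 1420676_PM_at (0.41, SE 0.37, adjusted p = 0.914), with the same arrays at the ends. Its probe set 1420677_PM_x_at, which other transcripts may share, differed by 0.14 (SE 0.36). Within WT the range was 3.62-fold for Lce1a1 and 3.27-fold for Lce1a2. The group means differed by 1.33-fold and 1.43-fold. A range of single arrays is no like measure to a difference of means, which it tends to exceed.

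Over the 15 Lce probe sets 12 were higher and 3 lower in cKO (80.0% higher, against 53.0% of all), none passed, and the median difference was 0.11. This median depended on single arrays: it was 0.30 without WT 2, 0.03 without WT 1, 0.04 without WT 4 and 0.05 without cKO 1. Without WT 2 the difference of Lce1a2 was 0.88 (limma adjusted p = 0.195), which also did not pass. Further differences were 0.28 for Lce1b and Lce1d, 0.24 for Lce1i and between 0.08 and 0.14 for Lce1h, Lce1l and Lce1m. Lce1f stood at 0.09 at its brighter probe set and at -0.10 at its dim one, which read 4.12, 4.09, 4.08 and 3.97 in cKO and 4.20, 4.23, 4.20 and 4.03 in WT. Lce1g, the only member whose groups did not overlap, read 3.58, 3.59, 3.54 and 3.60 in cKO and 3.63, 3.62, 3.71 and 3.61 in WT, a difference of -0.07 (SE 0.04, limma adjusted p = 0.793) at a level below which 2.75% of all probe sets lie.

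The Lce3 genes, which are known as injury- and psoriasis-associated members of the family, did not show the spread of Lce1. The dim probe set of Lce3a was not shown to lie above background. Lce3c read between 8.54 and 8.75 on all 8 arrays (0.03, SE 0.05), and Lce3b and Lce3a differed by 0.11 (SE 0.07) and -0.04 (SE 0.06). Lce3b stood at 5.59 ± 0.11 in cKO and 5.47 ± 0.08 in WT and Lce3a at 4.18 ± 0.08 and 4.22 ± 0.09 (SD, n = 4 each). Lce3b and Lce3c are measured by _x_at probe sets, whose probes may bind other transcripts, as are 4 of the Lce1 genes.

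Against all probe sets, the spread between arrays of one genotype was itself a property in which the complex stood out. It was measured by the residual SD of the fit, which the rule for members did not use. The complex was not compared with other sets of epidermal genes. Of 51 members 8 were among the 1% of all probe sets with the largest residual SD (0.37 or more) and 16 among the largest 5%. The 8 were both probe sets of Lce1a1 (0.65 and 0.62, ranks 17 and 22 of 45037), Lce1f (0.60), Lce1a2 (0.60), Ivl (0.51), Lce1b (0.48), Sprr1b (0.43) and Sprr2h (0.38). No S100a and no S100-fused probe set was among the 1%. Against probe sets within the same unit of log2 level, 0.124% had a residual SD at least as large as the first probe set of Lce1a1, 0.0269% as Lce1f, 0.472% as Ivl and 0.652% as Sprr1b. Members that are near copies vary together, so these counts do not stand for as many independent genes. Wide spread was not confined to the complex. SDs within cKO and within WT were 0.25 and 0.68 for Krt2, 0.485 and 0.60 for Cd74, and 0.35 and 0.45 for Prdm1. They were 0.33 and 0.46 for Ehf at its brightest probe set. Other genes outside the complex varied little, such as Tgm5 (0.10 and 0.09). All of these were picked out after their values were seen.

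**Figure D3:**
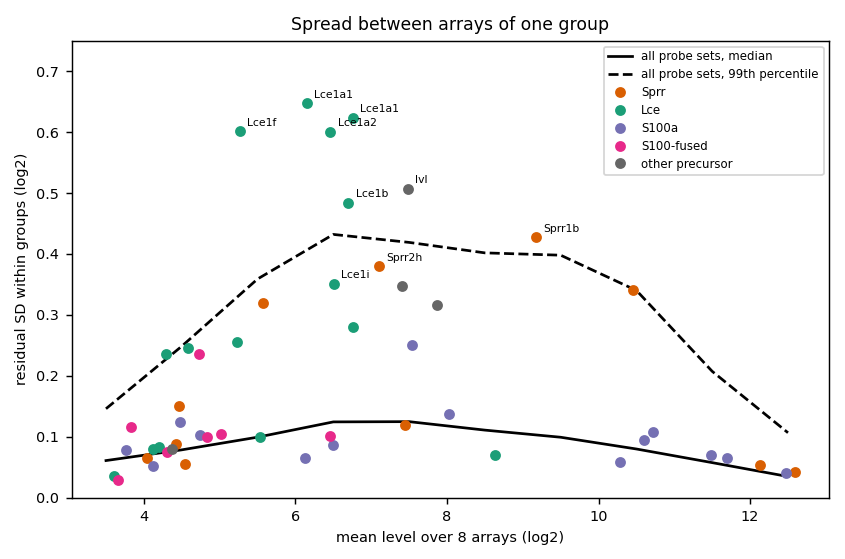
Residual SD within groups (log2) against the mean level over the 8 arrays (log2) for the 51 member probe sets, coloured by class; the solid and dashed lines give the median and the 99th percentile of all probe sets in steps of 1 log2 unit. Lce1a1, Lce1a2, Lce1f, Lce1b, Ivl and Sprr1b lie above the dashed line, while most S100a probe sets lie near the solid one.

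The arrays at the ends differed between Lce1 and the Sprr1 and Ivl genes. WT 2 was the highest of the WT arrays in 11 of 12 Lce1 probe sets and cKO 1 the highest of the cKO arrays in 11 of 12, while over all probe sets WT 2 was highest in 33.1% and cKO 1 in 43.1%. In the S100a class WT 2 was likewise the highest WT array, in 11 of 14 probe sets, and WT 1 the lowest in 10. There cKO 1 was the highest cKO array in 3. With each probe set centred on its own mean, the mean over the Lce1 probe sets was 0.37, 0.03, -0.01 and -0.04 in cKO 1 to 4 and -0.45, 0.55, -0.04 and -0.41 in WT 1 to 4. For the 5 probe sets of Sprr1a, Sprr1b, Sprr2h and Ivl, which were put together after their values were seen, it was -0.59, -0.23, 0.25 and 0.33 in cKO 1 to 4 and -0.09, 0.02, 0.42 and -0.11 in WT 1 to 4. The choice of this set fixes its pattern: over the whole Sprr class cKO 1 was the lowest cKO array in 6 of 11 probe sets, and Lor, which is not in the set, was highest in cKO 1 and WT 2 of their groups, as Lce1 genes were. Array means of marker lists ran from 11.5 to 11.7 over the basal genes and from 10.73 to 10.96 over the spinous genes. Over the 9 Langerhans and dendritic cell genes they ran more widely, from 6.91 in WT 4 to 7.70 in cKO 2. Of these genes 5 lay above the highest array median on all arrays and none passed. The width lay mainly in Cd74 (7.26 to 9.16), H2-Aa, H2-Ab1 and H2-Eb1, while Cd207 ran from 4.50 to 4.78 and Itgax from 5.14 to 5.32. The part of these markers in the patterns was not tested. Krt2, a keratin of the upper epidermis, was picked out after its values were seen: it read 7.27, 5.74, 6.81 and 7.05 in WT 1 to 4 and 5.59 to 6.10 in cKO, so that WT 2, the array with the highest Lce1 levels, had the lowest Krt2 level of its group.

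**Figure D4:**
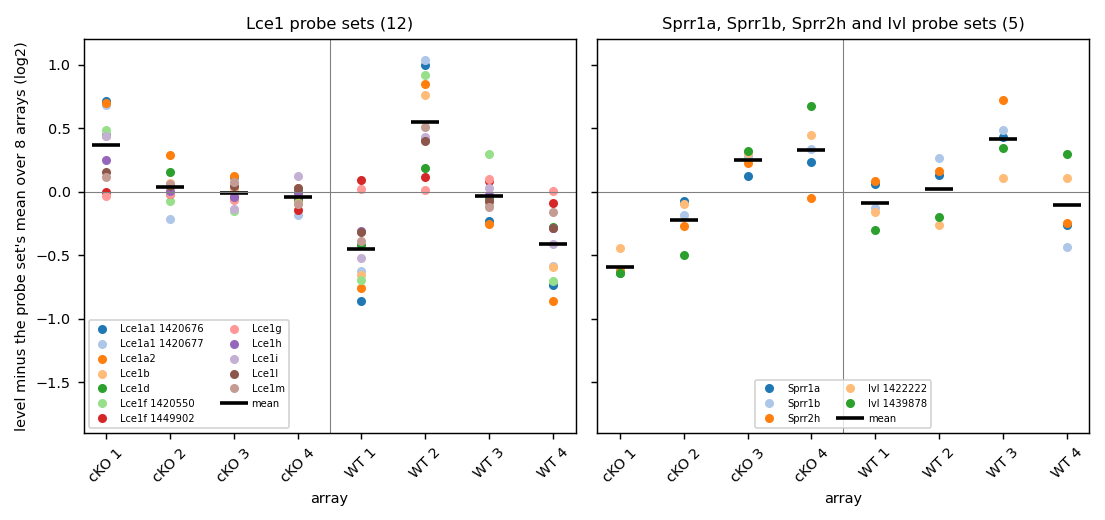
Level of each probe set minus its mean over 8 arrays (log2), by array, for the 12 Lce1 probe sets and for the 5 probe sets of Sprr1a, Sprr1b, Sprr2h and Ivl; black bars are means over the probe sets. Lce1 levels are high in cKO 1 and WT 2 and low in WT 1 and WT 4, whereas the second set is low in cKO 1 and high in cKO 3, cKO 4 and WT 3.

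The S100a genes had the lowest median residual SD of the classes, 0.08. Spread shrinks towards the top of the scale, where S100a10, S100a11 and S100a16 lie, and 34.5%, 37.2% and 40.8% of probe sets of like level had a residual SD at least as large as S100a10, S100a11 and the brighter probe set of S100a16. S100a10 and S100a11, partners of annexins at the membrane, read 11.4 to 11.6 and 12.4 to 12.6 over all arrays and differed by 0.00 (SE 0.05) and 0.06 (SE 0.04). S100a14 and the 2 probe sets of S100a16 differed by 0.02, 0.03 and -0.01. The largest upward difference was that of S100a13, which is known for the release of growth factors without a signal peptide. It read 7.92, 8.20, 8.05 and 8.27 in cKO 1 to 4 and 7.88, 8.10, 7.96 and 7.85 in WT 1 to 4 (0.16, SE 0.09, limma adjusted p = 0.724), with cKO 2 and cKO 4 above all WT arrays and the other cKO arrays among them.

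S100a8 and S100a9 form calprotectin, an alarm protein of neutrophils and of stressed keratinocytes. S100a9 read 6.07, 6.21, 6.27 and 6.20 in cKO and 6.02, 6.10, 6.06 and 6.10 in WT. All cKO arrays but cKO 1 lay above the WT arrays, and the difference was 0.12 (SE 0.05, limma adjusted p = 0.604; exact permutation p = 0.0857). S100a8 read 4.40, 4.44, 4.59 and 4.56 in cKO and 4.36, 4.67, 4.38 and 4.38 in WT (0.05, SE 0.08, adjusted p = 0.968). Of 12 neutrophil markers measured, none passed and the array means ran from 5.03 to 5.08 in cKO and from 5.03 to 5.05 in WT. Ltf and Il1r2 lay above the highest array median on all arrays, with Ltf at 5.99 in cKO and 6.03 in WT. Ngp and Camp read 4.01 and 5.04 in cKO and 4.002 and 5.10 in WT. The list held differences of both signs, with a median of 0.02. They were 0.11 for Lcn2, 0.10 for Csf3r, 0.07 for Cd177 and Mpo, 0.06 for Stfa2l1, 0.03 for Il1r2 and 0.0045 for Ngp. Lower in cKO were Ltf and Elane (-0.04 each), Mmp8 (-0.05), and Camp and Cxcr2 (-0.06 each). An unadjusted limma p under 0.05 was found for Csf3r alone (8.33% of the 12 probe sets, against 7.98% of all).

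S100a4 and S100a6 had means in cKO below those in WT by small amounts. S100a4, a marker of fibroblasts and migrating cells, read 7.72, 7.66, 7.18 and 7.43 in cKO and 7.27, 7.82, 7.75 and 7.47 in WT (-0.08, SE 0.15). S100a6, calcyclin, read 10.8, 10.8, 10.6 and 10.6 in cKO and 10.7, 10.9, 10.8 and 10.7 in WT (-0.07, SE 0.07). In both genes cKO 3 was the lowest and WT 2 the highest array. The array means of 10 fibroblast markers ran from 5.24 to 5.40 in cKO and from 5.35 to 5.44 in WT. Of their 15 probe sets none passed, and 4 had an unadjusted limma p under 0.05 (26.7%, against 7.98% of all). These 4 were Fbln1 at -0.45 and -0.35, Col6a1 at -0.44 and Col3a1 at 0.18. The part of the fibroblast markers in the S100a4 and S100a6 values was not tested. The samples are labelled as interfollicular epidermis cells and were profiled in bulk, where fewer cells of a type cannot be told apart from less RNA per cell. S100a3 of the hair cuticle differed by -0.01, S100a1 by -0.05, S100a5 by 0.03 and S100a7l2 by 0.09, the last at a level below which 5.66% of all probe sets lie. Over the class 9 of 14 probe sets were higher in cKO, with a median difference of 0.03, which turned to -0.0034 without WT 1.

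Along the chromosome the differences did not run one way. In gene order the complex starts with most S100a genes, goes on with Lor, the Sprr genes and Ivl, the Lce genes and the S100-fused genes, and ends with S100a11 and S100a10. Median differences were 0.03 for S100a, -0.02 for Sprr, 0.11 for Lce and -0.06 for S100-fused probe sets, the last -0.17 with 1 probe set per gene. Ivl and Lce1a1, the next measured gene, had their highest levels in different arrays, cKO 4 and WT 2. Kprp, which lies among the Lce1 genes, had a residual SD of 0.08, also the median of probe sets of like level. The dim Kprp probe set was not shown to lie above background, so it cannot tell whether the gene shares their spread. Order was taken from RefSeq (GRCm38.p6).

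The enzymes and partners that assemble the envelope did not pass either. Of 49 measured genes for envelope assembly and processing, with 60 probe sets, none was called higher or lower in cKO. An unadjusted p under 0.05 was found for 10 probe sets (16.7%, against 7.98% of all). They went both ways, and the median difference of the list was -0.002. Higher in cKO were Tgm5, Abca12 (0.35), Casp14 and Calml3 (0.28 each), Tgm2 (0.25) and Ctsl (0.16), the last 2 at 1 probe set only. Lower were Cdsn, Klk7, Krt2 and Aloxe3 (-0.13). Serpina1c is counted in this list only because the listed name Pi3 was matched to it as a synonym, and it is not known as an envelope gene. Cdsn, corneodesmosin, which holds cornified cells together, read 5.98 ± 0.11 in cKO and 6.35 ± 0.11 in WT (SD, n = 4 each), a difference of -0.38 (SE 0.07, limma adjusted p = 0.0740). It passed with 1 probe set per gene (adjusted p = 0.0450), after median centring (0.0378) and after quantile normalisation again (0.0421). Klk7, a protease that cuts corneodesmosin, stood at -0.54 (SE 0.13, adjusted p = 0.177) and Tgm5, a transglutaminase, at 0.24 (SE 0.07, adjusted p = 0.251). Klk7 passed with array weights (-0.59, limma adjusted p = 0.0499) and Tgm5 without both cKO 2 and WT 4 (0.32, adjusted p = 0.0493). Krt2 stood at -0.86 (SE 0.29, adjusted p = 0.436) and passed without WT 2 (-1.19, adjusted p = 0.0205).

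Of 57 measured regulators of the complex, with 111 probe sets, none passed, and the median difference was 0.0. An unadjusted p under 0.05 was found for 9 probe sets (8.11%), near the 7.98% of all probe sets. The smallest p belonged to Satb1, an organiser of chromatin at this locus, at 0.19 (SE 0.05, limma adjusted p = 0.256), to Rxra, the retinoid X receptor alpha, at 0.16 (SE 0.05, adjusted p = 0.274) and to Cebpb, a factor of early differentiation, at -0.14 (SE 0.05, adjusted p = 0.524). Among 10 measured S100 receptors, partners and further S100 genes none passed. Tlr4, a receptor of calprotectin, stood at 0.19 (SE 0.08, limma adjusted p = 0.580) at its brighter probe set and at 0.18 (SE 0.05, adjusted p = 0.266) at the other. At this dimmer probe set the groups did not overlap, as in 4.89% of all probe sets. The named probe sets of Satb1, Rxra, Cdsn, Klk7 and Tgm5 did not overlap either. Bsg, another receptor of S100a9, stood at 0.12 (SE 0.06) and S100b at -0.09 (SE 0.06).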

How the data were processed

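The authors deposited log2 expression values per probe set as RMA output, a tool named by the submitters' processing notes without version or settings. That the scale is log2 was read from its range, 3.06 to 13.03, with array medians of 5.72 to 5.80. Per the labels' protocols 25 ng of RNA were amplified in 17 cycles. RMA as commonly run equalises the distributions of arrays and would hide a change common to most genes. Of 45141 rows 104 control probe sets were left out.

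cKO minus WT was fitted on all 45037 probe sets with limma 3.58.1 in R 4.3.3 (lmFit, eBayes, two-sided), Benjamini-Hochberg adjusted over all of them, with a threshold of 0.05. The number of arrays, 4 per group, limits the precision, and probe sets near the low end were not shown to lie above background. Levels of different probe sets are not comparable. The fit was tested on simulated data. Sequences and gene order came from RefSeq tables (GRCm38.p6); windows were aligned with Biopython 1.88.

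Members, gene lists and tests were chosen with earlier results of these data known. Named were members past the threshold (none), the 2 largest differences in each direction per class and a list of core genes. The 3 smallest p of each pathway list were named too. Krt2, Ehf, the further envelope assembly genes, the remaining members and the set of Sprr1a, Sprr1b, Sprr2h and Ivl were chosen after their values were seen. Plots were drawn with matplotlib 3.10.9.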

Additional observations from a re-analysis of the deposited data

Results flagged for a closer look

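Of 66 groups of 4 arrays over 33 named probe sets, 6 held an array that stood apart from the other 3 by more than Dixon's critical value for 95% allows, where chance gives about 1 in 20. S100a8 read 4.67 in WT 2 against 4.36 to 4.38 in the other WT arrays. Lce3b read 5.42 in cKO 4 against 5.63 to 5.65. The first probe set of Rptn, 1420431_PM_at, read 5.17 in WT 4 against 4.97 to 4.99, and 1433211_PM_at read 3.66 in WT 1 against 3.63 in the other WT arrays. Lce1f at 1449902_PM_at read 4.03 in WT 4 against 4.20 to 4.23, and Lce1g read 3.71 in WT 3 against 3.61 to 3.63. The readings of Lce1g and of 1433211_PM_at lie near the bottom of the range of the arrays.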

How the results depend on the processing

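The count of members past the threshold was 0 in each direction under all 18 alternatives, which included the replicate number as a block, the upper 50% of probe sets by mean, quantile normalisation again, median centring, a trend and robust prior, array weights, gene tables, a threshold of 0.1, leaving out each array and, added after the data were seen, leaving out both cKO 2 and WT 4. The lowest adjusted p of any member in these fits was 0.110, for Tchh with array weights (-0.23). Of all probe sets, 210 in the fit reported, 132 were called in the upper 50%, 758 with array weights, 343 at a threshold of 0.1, 657 without both cKO 2 and WT 4, and 104 to 356 with 1 array left out; cKO 2, cKO 3, WT 1, WT 3 and WT 4 each moved this count by over 1.5 times. Of the marker and pathway lists, beside genes given in the results, Dsc2 and Fbln1 passed with array weights and Epcam without WT 4, with or without cKO 2. The median of the S100-fused class, -0.06, was -0.18 in the upper 50% of probe sets, where Tchh alone is left, and -0.17 in both gene tables, where Rptn counts once.

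Signs turned for 13 of the 33 named probe sets, counting Rptn 1433211_PM_at, which turned only against the mean over all Rptn probe sets. With array weights the difference was 0.042 for Rptn 1420431_PM_at, -0.0418 for S100a10, 0.11 for Ivl 1439878_PM_at and 0.0813 for Lor. Without both cKO 2 and WT 4 it was 0.0223 for Rptn 1420431_PM_at, -0.0049 for Tchhl1, -0.0369 for S100a10, 0.17 for Ivl 1439878_PM_at and 0.0597 for Lor. S100a10 stood at -0.0055 after quantile normalisation again and at -0.0141 after median centring. The mean over all probe sets of a gene gave -0.0153 for Rptn, against the sign of 1433211_PM_at, and 0.0156 for Ivl, against that of 1439878_PM_at. With 1 array left out the differences ran from -0.0621 to 0.51 for Lce1a1 1420677_PM_x_at, -0.0388 to 0.26 for Lce1m, -0.0545 to 0.033 for Rptn 1420431_PM_at, -0.0186 to 0.0334 for S100a10, -0.0513 to 0.0388 for S100a3, -0.18 to 0.0261 for S100a4, -0.30 to 0.0043 for Sprr1a, -0.25 to 0.10 for Sprr1b, -0.03 to 0.27 for Ivl 1422222_PM_at, -0.31 to 0.13 for Ivl 1439878_PM_at and -0.17 to 0.11 for Lor. The cause was not tested.

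Replicate numbers were not taken to pair the arrays, since 1 of the 4 correlations between deviations of same-numbered arrays lay below 0.1: they were 0.134, 0.221, -0.624 and 0.368 for numbers 1 to 4, where the highest with another number were 0.0321, 0.545, 0.462 and -0.0916, so that numbers 1 and 4 correlated best with their own. With the replicate block 175 probe sets were called and no member.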
